A study of Oryctolagus cuniculus with 17 samples.

Results

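The genes described here encode the proteasome: the subunits of its 20S core and 19S cap, its inducible catalytic subunits, its activators, its inhibitor and its assembly chaperones. They were all entries of the count table whose human gene symbol is PSM followed by a letter from A to G and a number, with the entry of the highest total count kept for each symbol. This gave 46 genes of 13827 entries, and 45 of them were among the 13142 genes tested. PSMB11, the catalytic subunit of the thymus, had 7 counts over all 17 samples and was not tested. The alpha subunits PSMA7 and PSMA8 are not analysed here, so counts of the core and of the 26S proteasome below are of the genes analysed.

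The proteasome is the main protease of the cytosol and nucleus. Its 20S core is a barrel of alpha rings, which gate the entry, and beta rings, which hold the catalytic sites, while the 19S cap recognizes ubiquitinated proteins, removes the ubiquitin, unfolds the protein with a ring of ATPases and feeds it into the core. Interferon gamma induces 3 alternative catalytic subunits that replace their standard counterparts in newly made cores, and the resulting immunoproteasome favours peptides that bind MHC class I. Oxidized proteins, which accumulate under high oxygen, are among its substrates.

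Lung RNA was sequenced from New Zealand White rabbit pups taken by C-section before term, at gestation day 28, and kept in incubators on milk replacer. Pups in hyperoxia breathed 95% oxygen and pups in normoxia 21% oxygen until day 3, 5 or 7 (HT3, HT5 and HT7 against NT3, NT5 and NT7), with 3 samples per group except 2 in HT5. Both conditions therefore share the preterm birth and the feeding, and term pups are not analysed here. The labels give total right lung homogenate as the material, so the levels are averages over all cell types of the lung, in which fewer cells of a type and less RNA per cell cannot be told apart. The surfactant protein genes SFTPC and SFTPB, which mark alveolar type 2 cells, were at 4030 to 12300 and 3150 to 8090 CPM (counts scaled to the total of the sample) over the 17 samples. Each locus taken once, the samples held 13123731 to 18111086 counts. Nothing in the sources says that samples of a group came from separate litters, so p-values measure only the spread between these samples.

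Counts of 4 genes were those of a locus with further annotated genes and cannot be separated from them. PSMB8 shares its counts with TAP1, PSMB10 with SLC12A4 and LCAT, PSMD1 with ARMC9, and PSME3 with AOC2 and AOC3. The other 41 tested genes had a locus of their own.

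Hyperoxia was compared with normoxia on each day. On day 5, 14 of the 45 genes rose and 1 fell, and on day 7, 30 rose and 1 fell, at an adjusted p-value under 0.05 (edgeR's quasi-likelihood test with Benjamini-Hochberg adjustment over all genes tested, also for every adjusted p below that names no other test). The upregulated genes belonged to the standard 20S core and the 19S cap (12 of 33 on day 5 and 27 of 33 on day 7), apart from PSME4, PSMG1 and, on day 7, PSMG2. No inducible catalytic subunit was among them, and the gene that fell was PSME3 on both days. The shares of genes that rose were 31.1% on day 5 and 66.7% on day 7, against 15.9% and 23.7% of all genes tested. Among all genes tested, 15.4% fell on day 5 and 23.7% fell on day 7. The day 5 calls rested on few samples. Of the 14 higher genes, 3 passed without HT5 replicate 2 (PSMA6, PSME4 and PSMG1) and 8 with the samples of day 5 alone, where 4.2% and 9.37% of all genes tested rose. Fits of HT against NT with the replicate number as a block used only the samples of the day. On day 5 such a fit rests on 2 same-numbered pairs. There 0 of the 45 passed in either direction, and of all genes tested 0.0158% rose and 0% fell. It could thus call almost no gene, and the 0 says little of the 45. The log2FC of the 14 genes was 0.39 to 0.81 in that fit and 0.37 to 0.89 in the fit of all 17 samples without the block. On day 7 the calls of PSMA5, PSMB1, PSMB6, PSMD13 and PSMG2 were lost without HT7 replicate 1.

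On day 3, 0 genes of the 45 rose and 0 fell, as against 0.517% of all genes in each direction. DESeq2's Wald test also called 0, and 2 genes, PSME4 and PSMG1, had an unadjusted p-value under 0.05. A fit of the day 3 samples alone took the replicate number as a block. There PSMB8 had a log2FC of -0.49 and passed as the only gene of the 45 (adjusted p = 0.0477). In that fit 1.22% of all genes tested rose and 1.55% fell. Without the block, 0 of the 45 passed with the day 3 samples alone. PSMB8 had an adjusted p of 0.579 in the fit of all 17 samples. Same-numbered samples of day 3 deviated together only weakly (correlations 0.117 to 0.17), and what their number stands for is not stated.

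The changes were small in size. The median log2FC of the 45 genes was 0.10 on day 3, 0.34 on day 5 and 0.43 on day 7, beside 0.00, -0.02 and -0.01 over all genes tested. None of the 45 met the study's thresholds for a differentially expressed gene (adjusted p under 0.01 and log2FC above 2 or below -2) on any day, which 0.0533%, 1.58% and 4.59% of all genes met on days 3, 5 and 7. All HT samples lay above all NT samples for 9 genes on day 3, 27 on day 5 and 30 on day 7, as they did for 12.8%, 26.5% and 27.3% of all genes tested. The 9 genes of day 3 are 20.0% of the 45 and did not pass the test. All HT samples lay below all NT samples for 3, 1 and 1 of the 45 on days 3, 5 and 7. On day 7 they did for 27.2% of all genes tested, and this share was not computed for days 3 and 5.

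**Figure D1:**
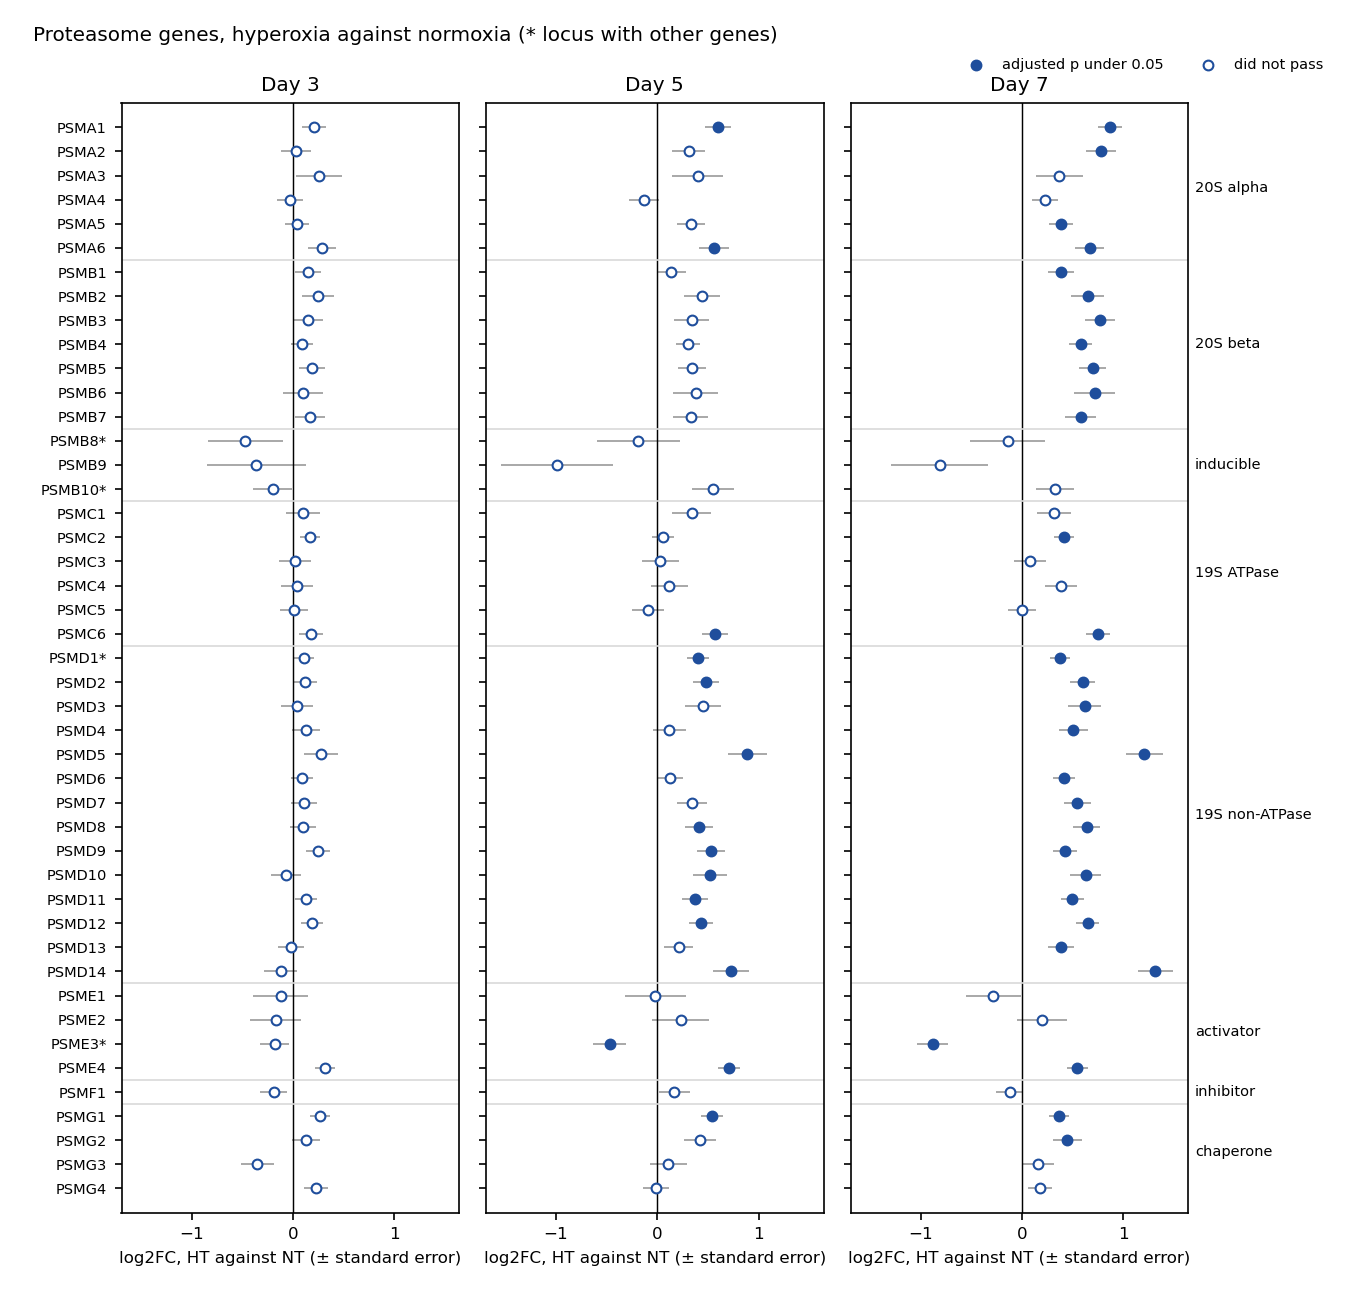
Log2FC of HT against NT on each day (horizontal axes, bars ± standard error) for the 45 proteasome genes tested, grouped by class; filled points passed an adjusted p of 0.05 and open points did not, and an asterisk marks a gene whose locus holds other genes. No point is filled on day 3, and on day 7 the 7 standard beta and 14 non-ATPase genes are all filled to the right of 0, the 3 inducible genes are open, and PSME3 is filled to the left.

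The 20S core was upregulated on day 7 in both kinds of ring. Among the standard beta subunits, 0 of 7 passed on day 5, although 3 had an unadjusted p-value under 0.05 and all 7 had a positive log2FC (median 0.34), and DESeq2 also called 0. On day 7, 7 of 7 rose, with a median log2FC of 0.65 and a range from 0.39 for PSMB1 to 0.77 for PSMB3. Of the 6 alpha subunits, PSMA1 and PSMA6 rose on day 5, and PSMA1, PSMA2, PSMA5 and PSMA6 rose on day 7. The log2FC of the other 2 on day 7 was 0.37 for PSMA3 (adjusted p = 0.194) and 0.23 for PSMA4 (adjusted p = 0.175).

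PSMA1 had the largest rise of the core genes on day 7. This gene of an alpha ring subunit lies on chromosome 1 (156247306 to 156260205, minus strand, as the table lists it, the submitters' processing notes naming the build OryCun2.0). Its levels were 86.5 to 98.7 CPM in NT5 and 132 and 145 CPM in HT5, and in NT7 they were 94.7, 77.8 and 89.6 CPM against 183, 137 and 159 CPM in HT7. The groups did not overlap on either day. Its log2FC was 0.60 ± 0.13 (SE, adjusted p = 0.00443) on day 5 and 0.87 ± 0.12 (adjusted p = 6.12e-05) on day 7. On day 5 PSMA6, another alpha subunit, was close to it at 0.56 ± 0.15 (adjusted p = 0.0112), and without HT5 replicate 2 the log2FC was 0.51 for PSMA1, which no longer passed (adjusted p = 0.0712), and 0.71 for PSMA6. Without HT5 replicate 1 the PSMA6 value was 0.39, and its call was lost there and with the samples of day 5 alone (adjusted p = 0.0524 to 0.121 over the settings that lost it). On day 3 the levels of PSMA1 were 85.7, 86.5 and 104 CPM in HT3 and 80.0, 73.0 and 85.3 CPM in NT3, with a log2FC of 0.21 that did not pass (adjusted p = 0.434).

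The 3 standard catalytic subunits are PSMB5, PSMB6 and PSMB7, which cut after hydrophobic, acidic and basic residues, respectively. PSMB5 (chromosome 17, 43253956 to 43262133, minus strand) was at 88.4, 70.9 and 80.4 CPM in HT3 and 74.7, 64.8 and 70.4 CPM in NT3, at 88.8 and 99.3 CPM in HT5 and 72.8, 77.9 and 73.1 CPM in NT5, and at 163, 108 and 136 CPM in HT7 and 87.4, 79.3 and 85.2 CPM in NT7. HT5 and HT7 lay above their NT groups, and HT3 overlapped NT3. Its log2FC on day 7 was 0.70 ± 0.13 (adjusted p = 0.000536).

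PSMB6 was at 112, 102 and 98.6 CPM in HT3 and 106, 97.8 and 87.7 CPM in NT3, at 151 and 134 CPM in HT5 and 123, 102 and 104 CPM in NT5, and at 266, 124 and 166 CPM in HT7 and 125, 103 and 109 CPM in NT7. It rose on day 7 (log2FC 0.72 ± 0.20, adjusted p = 0.00832) with a wide spread in HT7, and HT7 replicate 2 lay just below the highest NT7 sample. Without HT7 replicate 1 its log2FC was 0.37 and it no longer passed. PSMB7 was at 96.5, 84.0 and 92.4 CPM in HT3 and 77.7, 79.1 and 85.8 CPM in NT3, at 109 and 107 CPM in HT5 and 85.7, 82.2 and 89.1 CPM in NT5, and at 185, 111 and 118 CPM in HT7 and 99.5, 85.9 and 92.5 CPM in NT7. On days 5 and 7 its HT samples were all above its NT samples, and it passed on day 7 (log2FC 0.58 ± 0.15, adjusted p = 0.00543). Without HT7 replicate 1 its log2FC was 0.31, and it still passed (adjusted p = 0.0182).

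The 19S cap held 10 of the 14 genes that rose on day 5. Its 14 non-ATPase genes form the base scaffold, the lid and the ubiquitin receptors, or assist the assembly of the base. 9 of the 14 rose on day 5 and 14 of 14 rose on day 7, with median log2FC of 0.42 and 0.57. PSMD2, a scaffold of the base, is one of the 9, at 363 and 341 CPM in HT5 and 226 to 291 CPM in NT5 (log2FC 0.48 ± 0.13, adjusted p = 0.0113). PSMD4, a ubiquitin receptor, was at a log2FC of 0.12 on day 5 (adjusted p = 0.61) and rose on day 7 (0.51 ± 0.14, adjusted p = 0.00876).

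PSMD14, the deubiquitinase of the lid that removes the ubiquitin chain before a protein is degraded, had the largest rise of all 45 genes on day 7. It lies on chromosome 7 (100434312 to 100579744, plus strand). Its levels were 27.4, 21.2 and 28.2 CPM in HT3 and 26.6, 26.1 and 30.9 CPM in NT3, 43.9 and 55.5 CPM in HT5 and 30.7, 26.2 and 33.0 CPM in NT5, and 85.3, 59.3 and 70.7 CPM in HT7 and 31.7, 24.3 and 30.3 CPM in NT7. The groups overlapped on day 3 and were apart on days 5 and 7. The log2FC was -0.12 on day 3, 0.73 ± 0.18 (adjusted p = 0.00763) on day 5 and 1.32 ± 0.17 (adjusted p = 2.65e-05) on day 7, the last a 2.49-fold higher level.

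PSMD5, which assists the assembly of the base and leaves the finished cap, was second on day 7. Its locus is on the unplaced scaffold GL018699 (6418644 to 6438470, plus strand). It was at 30.9, 29.5 and 35.5 CPM in HT3 and 23.1, 28.0 and 27.9 CPM in NT3, at 38.8 and 60.9 CPM in HT5 and 26.5, 30.0 and 24.3 CPM in NT5, and at 74.2, 53.5 and 75.8 CPM in HT7 and 31.0, 30.9 and 25.9 CPM in NT7. HT samples lay above NT samples on all 3 days. The difference passed on day 5 (log2FC 0.89 ± 0.19, adjusted p = 0.00345) and day 7 (1.21 ± 0.18, adjusted p = 7.67e-05). The day 5 value was 0.51 without HT5 replicate 2 and no longer passed (adjusted p = 0.127). PSMD9 and PSMD10, which also assist base assembly, rose on both days by a log2FC of 0.53 and 0.52 on day 5 and 0.43 and 0.63 on day 7. Without HT5 replicate 2 the day 5 log2FC of PSMD10 was 0.34 (adjusted p = 0.31).

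Of the 6 ATPases of the unfolding ring, 1 rose on day 5 and 2 on day 7 (16.7% and 33.3%, beside 15.9% and 23.7% of all genes tested). PSMC6 rose on day 5 (log2FC 0.57 ± 0.13, adjusted p = 0.00499) and day 7 (0.75 ± 0.12, adjusted p = 0.000151), and PSMC2 rose on day 7 (0.42 ± 0.10, adjusted p = 0.00355). The other 4 did not pass on either day in the fit of all 17 samples. PSMC3 was at 259, 177 and 165 CPM in HT7 and 212, 172 and 184 CPM in NT7, and PSMC5 at 173, 132 and 122 CPM in HT7 and 145, 134 and 150 CPM in NT7, so that the groups overlapped for both genes. PSMC1 and PSMC4 had a log2FC of 0.32 and 0.39 on day 7 (adjusted p = 0.148 and 0.0593). PSMC4 passed on day 7 with the replicate block (adjusted p = 0.0448) and without HT7 replicate 2 (adjusted p = 0.0304). The genes of the standard core and the cap, together called the 26S proteasome and counted here with PSMD5, PSMD9 and PSMD10, were upregulated in 12 of 33 cases on day 5 and 27 of 33 on day 7. Without those 3 genes of base assembly the counts were 9 of 30 and 24 of 30.

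**Figure D2:**
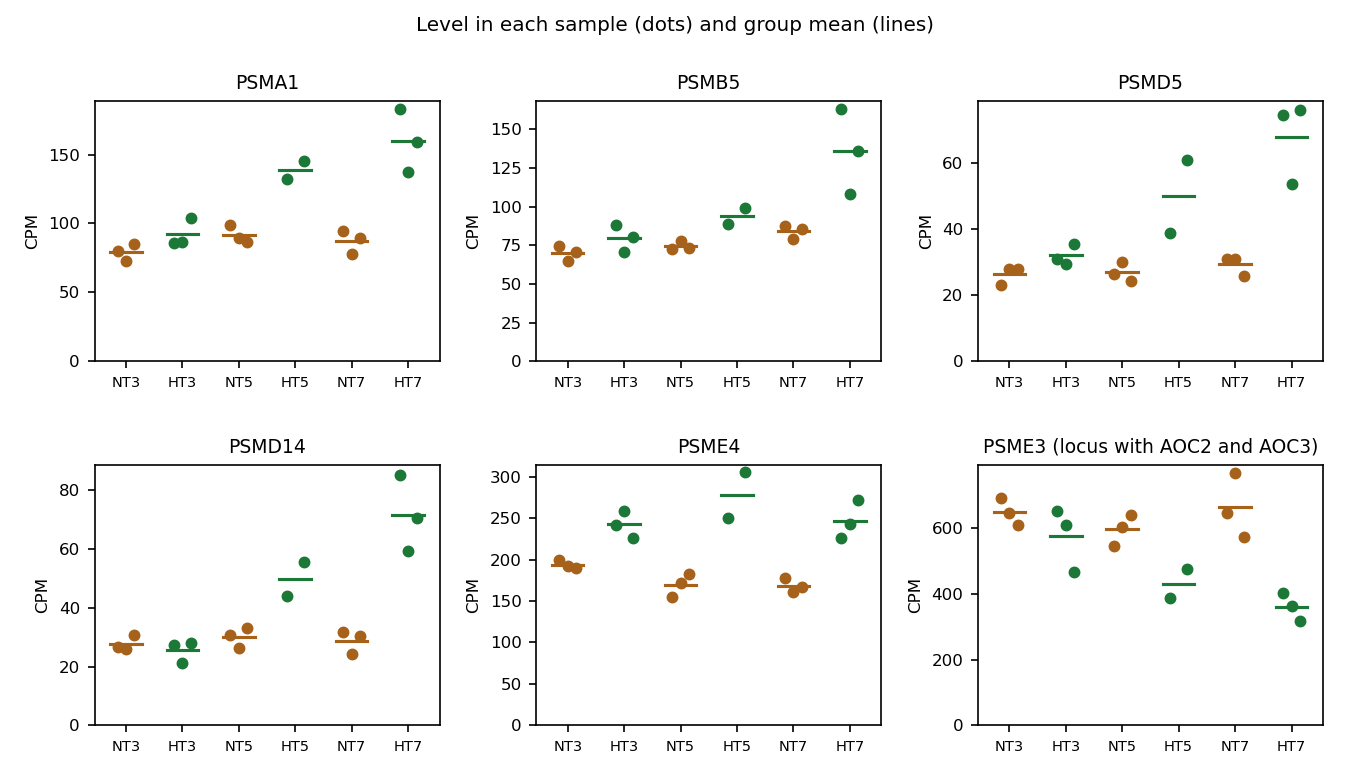
Level in CPM (vertical axes from 0) of 6 proteasome genes in each sample, with NT in brown, HT in green and lines at the group means. HT5 and HT7 lie above NT5 and NT7 for PSMA1, PSMB5, PSMD5, PSMD14 and PSME4, the HT3 samples of PSMD14 overlap those of NT3, 1 of them lying below, and HT7 lies below NT7 for PSME3, whose locus also holds AOC2 and AOC3.

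Among the activators, PSME4 rose and PSME3 fell. PSME4 encodes a large nuclear cap that binds the core without ATP and is known for the degradation of acetylated histones. It was at 242, 259 and 226 CPM in HT3 and 199, 192 and 190 CPM in NT3, at 250 and 306 CPM in HT5 and 155, 172 and 182 CPM in NT5, and at 226, 243 and 272 CPM in HT7 and 178, 161 and 167 CPM in NT7. HT lay above NT on all 3 days. The log2FC was 0.32 ± 0.10 on day 3 (adjusted p = 0.148), 0.71 ± 0.11 on day 5 (adjusted p = 0.000528) and 0.55 ± 0.10 on day 7 (adjusted p = 0.000488).

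PSME3 encodes the nuclear member of the family of ring-shaped activators. The locus with its symbol (chromosome 19, 43540133 to 43545140, plus strand) was at 652, 608 and 465 CPM in HT3 and 692, 646 and 608 CPM in NT3, at 386 and 474 CPM in HT5 and 544, 602 and 640 CPM in NT5, and at 403, 362 and 317 CPM in HT7 and 646, 767 and 572 CPM in NT7. HT5 and HT7 lay below their NT groups, as HT7 did for 27.2% of all genes tested. It fell by 0.47 ± 0.16 on the log2 scale on day 5 (adjusted p = 0.0409) and by 0.88 ± 0.15 on day 7 (adjusted p = 0.000228). The day 5 call was lost with the samples of that day alone, with the replicate block, and without HT5 replicate 1, HT5 replicate 2, NT5 replicate 2 or NT5 replicate 3 (adjusted p = 0.0687 to 0.229). AOC2 and AOC3, amine oxidases of which AOC3 is known from vessel walls, are counted in the same locus, and which of the 3 genes fell cannot be told apart.

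PSME1 and PSME2, the interferon-inducible activators that act with the immunoproteasome, did not pass on any day. Their log2FC on day 7 was -0.28 ± 0.27 and 0.20 ± 0.25, and on day 5 -0.02 and 0.23. PSMF1, an inhibitor of the core, was at a log2FC of -0.19, 0.17 and -0.12 on days 3, 5 and 7 and did not pass.

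PSMG1 to PSMG4 are chaperones that build the 20S core and are not part of it. PSMG1 rose on day 5 (log2FC 0.54 ± 0.11, adjusted p = 0.00229) and day 7 (0.37 ± 0.10, adjusted p = 0.00594), and PSMG2, its partner in building the alpha ring, rose on day 7 (0.45 ± 0.14, adjusted p = 0.0169). The PSMG2 call was lost with day 7 alone, with the replicate block and without HT7 replicate 1, NT7 replicate 1 or NT7 replicate 2 (adjusted p = 0.051 to 0.0705). PSMG1 was at 54.7 and 50.8 CPM in HT5 and 35.0 to 37.8 CPM in NT5. PSMG3 and PSMG4 did not pass, with a log2FC of 0.16 and 0.18 on day 7.

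The inducible catalytic subunits gave few calls on single days, and these depended on the fit. Of PSMB8, PSMB9 and PSMB10, 0 of 3 passed on days 3, 5 and 7 without the block, and 1 had an unadjusted p-value under 0.05, PSMB10 on day 5. DESeq2's Wald test called PSMB10 higher on day 5 (log2FC 0.56, adjusted p = 0.039) and no other of the 3 on any day. With the replicate block in the fit of the day 3 samples alone, PSMB8 was lower on day 3 (adjusted p = 0.0477). The standard errors of PSMB8 (0.37 to 0.41) and PSMB9 (0.48 to 0.55) were larger than those of the standard subunits.

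PSMB8, the counterpart of PSMB5, is counted with TAP1, a peptide transporter for MHC class I, in 1 locus on chromosome 12 (23356988 to 23360280, minus strand). That locus was at 76.4, 41.7 and 90.0 CPM in HT3 and 103, 64.0 and 123 CPM in NT3, at 145 and 109 CPM in HT5 and 247, 85.2 and 102 CPM in NT5, and at 100, 114 and 105 CPM in HT7 and 116, 87.2 and 149 CPM in NT7. The groups overlapped on every day, while on day 3 each HT3 sample lay below the NT3 sample of the same number. Its log2FC was -0.49 ± 0.09 on day 3 with the replicate block in the fit of that day alone. In the fit of all 17 samples without the block it was -0.47 ± 0.37, -0.19 ± 0.41 and -0.14 ± 0.37 on days 3, 5 and 7.

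PSMB9, the counterpart of PSMB6, lies next to it on chromosome 12 (23371247 to 23377424, plus strand). It was at 12.8, 5.65 and 9.04 CPM in HT3 and 12.3, 9.88 and 13.2 CPM in NT3, at 20.4 and 7.47 CPM in HT5 and 50.5, 11.4 and 20.9 CPM in NT5, and at 8.71, 16.8 and 9.63 CPM in HT7 and 20.3, 15.2 and 25.8 CPM in NT7. The groups overlapped, with NT5 replicate 1 far above the rest. Its log2FC was -0.36 on day 3, -0.99 ± 0.55 on day 5 (adjusted p = 0.18) and -0.81 ± 0.48 on day 7 (adjusted p = 0.185).

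PSMB10, the counterpart of PSMB7, was counted with SLC12A4, a potassium chloride transporter, and LCAT, an enzyme of cholesterol transport. The locus was at 242, 234 and 250 CPM in HT3 and 282, 258 and 294 CPM in NT3, at 315 and 413 CPM in HT5 and 262, 226 and 256 CPM in NT5, and at 335, 190 and 383 CPM in HT7 and 229, 225 and 266 CPM in NT7. HT3 lay below NT3, HT5 above NT5, and HT7 spread over both sides of NT7. The log2FC was -0.20, 0.55 ± 0.21 (adjusted p = 0.0557) and 0.33 ± 0.19 (adjusted p = 0.162) on days 3, 5 and 7. Without HT7 replicate 2, the low one, PSMB10 passed on day 7 (log2FC 0.59, adjusted p = 0.00141). Without HT7 replicate 3, the high one, its log2FC was 0.14 and it did not pass.

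NT5 replicate 1 was the highest of the 17 samples for PSMB8, PSMB9, PSME1, B2M (the light chain of MHC class I, 1220 CPM against 354 to 818 CPM in the others) and PTPRC (the common antigen of leukocytes, 178 CPM against 70.3 to 143 CPM). Without it, the log2FC on day 5 was 0.44 for PSMB8 and -0.22 for PSMB9, and neither passed. Other omissions moved the values the other way, to -0.45 for PSMB8 without NT5 replicate 2 and to -1.89 for PSMB9 without HT5 replicate 1. The part of leukocytes in these levels was not tested.

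To compare an inducible subunit with the one it replaces, the log2 ratio of both levels was taken within each sample, which does not depend on the depth of the sample. The ratio of PSMB9 to PSMB6 was lower in hyperoxia by a mean of 1.10 on the log2 scale over the 3 days (p = 0.0085, adjusted p = 0.0255 over the 3 pairs, 2-sided exact permutation test with HT and NT exchanged within each day). Samples lay further apart than that within groups such as HT7 (-4.93 to -2.88) and NT5 (-3.16 to -1.29). The ratio of PSMB8 to PSMB5 differed by -0.61 (p = 0.0278, adjusted p = 0.0416, same exact test), and that of PSMB10 to PSMB7 by -0.14 (p = 0.293, same exact test). PSMB8 is counted with TAP1, and PSMB10 with SLC12A4 and LCAT, so only PSMB9 to PSMB6 is a ratio of subunit genes alone.

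By day, the HT minus NT difference of PSMB9 to PSMB6 was -0.53, -1.27 and -1.49 on days 3, 5 and 7, and that of PSMB8 to PSMB5 was -0.68, -0.37 and -0.78. For both pairs all HT7 samples lay below all NT7 samples, while the groups overlapped on days 3 and 5. The ratio of PSMB9 to PSMB6 was -4.93, -2.88 and -4.11 in HT7 and -2.62, -2.75 and -2.08 in NT7. The ratio of PSMB8 to PSMB5 was -0.70, 0.07 and -0.37 in HT7 and 0.41, 0.14 and 0.80 in NT7. On single days the exact test cannot go below p = 0.1, so no day alone could pass. On day 7 the log2FC was -0.81 for PSMB9 and 0.72 for PSMB6, and -0.14 for PSMB8 and 0.70 for PSMB5.

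Both ratio results depended on single samples. The call of PSMB8 to PSMB5 was lost when any 1 of 12 of the 17 samples was left out and was kept without HT3 replicate 3, HT7 replicate 2, NT3 replicate 2, NT5 replicate 2 or NT7 replicate 2. The difference ranged from -0.72 to -0.45, the latter without NT5 replicate 1. For PSMB9 to PSMB6 the call was lost without HT5 replicate 2, NT7 replicate 1 or NT7 replicate 3, and the difference ranged from -1.31 to -0.88.

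**Figure D3:**
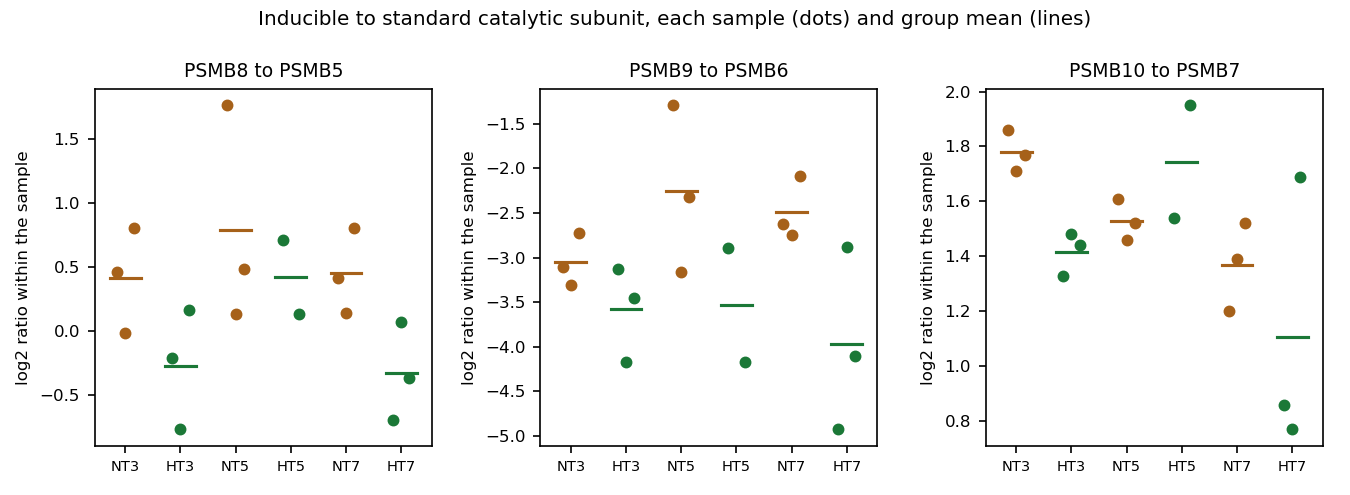
Log2 ratio of each inducible catalytic subunit to its standard counterpart (vertical axes, not starting at 0) in each sample, with NT in brown, HT in green and lines at the group means. The HT7 samples lie below the NT7 samples for PSMB8 to PSMB5 and PSMB9 to PSMB6, the HT7 mean of PSMB9 to PSMB6 being -3.97 against -2.49 in NT7, and 1 HT7 sample lies above NT7 for PSMB10 to PSMB7. The counts of PSMB8 include TAP1, and those of PSMB10 include SLC12A4 and LCAT.

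The 14 genes that rose on day 5 all rose on day 7, and a further 16 passed on day 7 only. Whether the effect of hyperoxia itself grew was tested as the difference between the effects of days 7 and 3. It was larger on day 7 for 9 genes (20.0% of the 45, against 9.52% of all genes tested) and lower for PSME3, 1 gene of the 45, against 11% of all genes. In either direction these are 22.2% of the 45 and 20.5% of all genes, a share near the background. The 9 are PSMA1, PSMA2, PSMB4, PSMC6, PSMD5, PSMD8, PSMD10, PSMD12 and PSMD14. This count was between 4 and 20 when 1 sample of days 3 and 7 was left out. PSMD14 had the largest difference, 1.44 ± 0.23 (adjusted p = 0.00171), while PSME4, which was already higher in all HT3 samples, had 0.23 (adjusted p = 0.267).

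Over the exposure, 28 of the 45 genes were higher in HT7 than in HT3 (22.3% of all genes tested were) and PSME3 was lower (22% of all genes were). Between NT3 and NT7, 0 of the 45 genes and 0% of all genes changed. None of the 45 had an unadjusted p-value under 0.05 there, whereas 824 of all genes did, and DESeq2's Wald test also called 0 of the 45. The median log2FC of the 45 genes from day 3 to day 7 was 0.46 in hyperoxia and 0.09 in normoxia.

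The samples of a group did not have the same level of these genes. The summed level of the 33 genes of the 26S proteasome was 5340, 3900 and 4230 CPM in HT7 and 3390, 2810 and 3150 CPM in NT7, so that every HT7 sample lay above every NT7 sample. HT5 was at 3710 and 3800 CPM and NT5 at 2800 to 3190 CPM, and HT3 (3020 to 3250 CPM) overlapped NT3 (2740 to 3030 CPM). On day 3 each HT3 sample was above the NT3 sample of the same number, by 221, 286 and 218 CPM. HT7 replicate 1 was the highest of its group for 29 of the 33 genes and HT7 replicate 2 the lowest for 24. Replicate 1 was also the highest in NT7 for 28 of the 33 genes, and replicate 2 the lowest in NT7 for 31, in NT5 for 19, in NT3 for 23 and in HT3 for 21. Neither the labels nor the methods say what a replicate number stands for. With the number as a block, in fits of each day alone, 0 genes rose and 1 fell on day 3, and 0 rose and 0 fell on day 5. On day 7, 30 rose and 1 fell, and 21% of all genes tested rose and 20.6% fell in that fit. Against the fit of all 17 samples it gained PSMC4 and lost PSMG2. The samples of day 7 alone without the block also lost PSMG2.

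**Figure D4:**
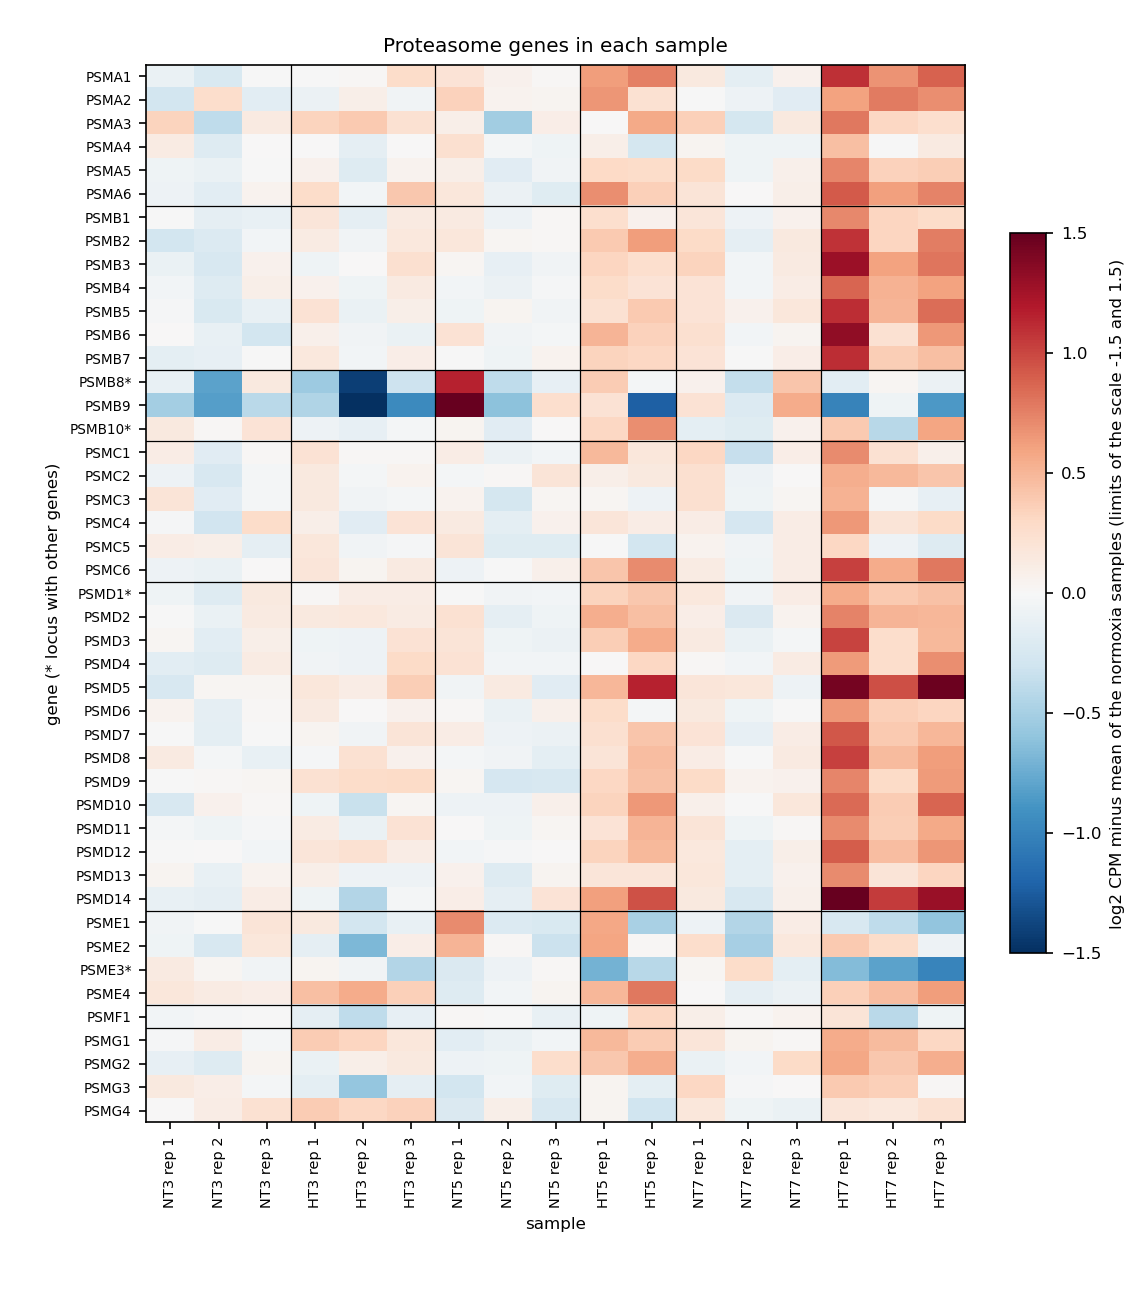
Log2 CPM of the 45 proteasome genes (rows, by class) in each of the 17 samples (columns, by group) minus the mean of the 9 NT samples, red for higher and blue for lower. HT5 and HT7 are red for most rows of the core and cap, HT7 replicate 1 most of all, while PSMB8 and PSMB9 vary within groups and are deepest red in NT5 replicate 1.

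Genes that work with the proteasome but lie outside the symbol rule were described by a list of 29, of which 24 were tested. On days 3, 5 and 7, 0, 10 and 14 rose (0%, 41.7% and 58.3%, beside 0.517%, 15.9% and 23.7% of all genes tested), and none fell on any of the 3 days. On day 3, 3 of the 24 had an unadjusted p-value under 0.05 and DESeq2 called 0. The list's median log2FC was 0.10, 0.35 and 0.38. UBQLN1, a shuttle that carries ubiquitinated proteins to the cap, had a log2FC of 1.18 ± 0.16 on day 7 (adjusted p = 3.63e-05). The deubiquitinases that bind the cap, USP14 and UCHL5, were at a log2FC of 1.0 ± 0.10 (adjusted p = 5.71e-06) and 0.94 ± 0.15 (adjusted p = 0.000126). POMP, which matures the core, rose on day 7 by 0.70 ± 0.14 (adjusted p = 0.00101), from 54.7, 47.3 and 57.6 CPM in NT7 to 106, 75.3 and 76.6 CPM in HT7.

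NFE2L1, a transcription factor known to induce proteasome genes when the proteasome is inhibited, was at 390, 343 and 370 CPM in HT7 and 402, 448 and 332 CPM in NT7 and did not pass (log2FC -0.10, adjusted p = 0.498). It is regulated mainly after translation, so its mRNA says little of its activity. Of the targets of NRF2, the regulator of the antioxidant response that is also known to act on some proteasome genes, 5, 13 and 16 of the 18 tested rose on days 3, 5 and 7 (27.8%, 72.2% and 88.9%, beside 0.517%, 15.9% and 23.7% of all genes tested) and none fell. Their median log2FC was 0.67, 1.01 and 1.97. A link of NFE2L1 or NRF2 to the levels of the proteasome genes was not tested.

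Genes of antigen presentation and of the interferon gamma response are regulated with the immunoproteasome in many cells. Of 18 tested, 2 fell on day 5 (TAPBP and NLRC5), and on day 7 there were 5 that fell and 1 that rose, the receptor chain IFNGR2. The shares that fell, 11.1% and 27.8%, are near those of all genes tested (15.4% and 23.7%). On day 7, 15 of the 18 had a negative log2FC, with a median of -0.46 against -0.01 over all genes tested, and TAP1, 1 of the 18, has the same counts as PSMB8. On day 3, 0 passed, 4 had an unadjusted p-value under 0.05 and DESeq2 called 1. NLRC5, the activator of MHC class I genes and of PSMB9, fell by 2.06 ± 0.61 on day 5 (adjusted p = 0.0188) and by 2.42 ± 0.54 on day 7 (adjusted p = 0.00192) on the log2 scale. On day 7 IRF1 was at -0.98 (adjusted p = 0.0458), ERAP1, a peptide trimming enzyme, at -0.97 (adjusted p = 0.00435), CD74 at -1.03 (adjusted p = 0.0383) and TAPBP, whose locus holds other genes, at -0.49 (adjusted p = 0.00108). B2M and TAP2 had a log2FC of -0.42 and -0.40 and did not pass (adjusted p = 0.268 and 0.372). IFNG itself had 0 to 9 counts a sample and was not tested.

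Markers of several cell types moved with the condition. On day 7, 7 of 11 lymphocyte markers fell and their summed level was 11.5 to 16.4 CPM in HT7 against 22.3 to 35.3 CPM in NT7. Of 5 pan-leukocyte markers 0 passed on any day (on day 7, 3 had an unadjusted p-value under 0.05 and DESeq2 called 1), and their sum was 894 to 1060 CPM in HT7 against 1150 to 1400 CPM in NT7. Of 10 macrophage markers, 2 rose on day 5, 3 rose and 1 fell on day 7, 6 of the 10 had a negative log2FC (median -0.21), and their sum was 1960 to 2490 CPM in HT7 against 1180 to 1430 CPM in NT7. The risers were CD163, MSR1 and CD68, and MARCO fell. The locus of CD68 holds other genes, so the sum of the macrophage list includes their counts. On day 7, 23.7% of all genes tested rose and as many fell. Of 8 neutrophil markers, 0 passed on day 3, but 7 had an unadjusted p-value under 0.05, DESeq2 called 2, the median log2FC was 1.47, and their sum was 991 to 1480 CPM in HT3 against 284 to 653 CPM in NT3. CSF3R and CXCR2 rose on day 5 (sum 617 to 973 CPM in HT5 and 146 to 673 CPM in NT5), and 2 markers rose and 1 fell on day 7 (sum 960 to 2890 CPM against 826 to 1010 CPM). Each gene of these 4 lists that is in the table had counts in every group. Of the structural cells, 3 of 5 alveolar type 1 markers fell on days 5 and 7 (sum 1980 to 2620 CPM in HT7 and 6690 to 7550 CPM in NT7) and 4 of 6 endothelial markers fell on day 7 (855 to 1220 CPM against 2080 to 2410 CPM). On day 5, 3 of the 6 fell and VWF rose (log2FC 1.14, adjusted p = 0.00747). Of all genes tested, 15.9% rose and 15.4% fell on day 5. Of 10 genes of proliferating cells, 4 fell on day 5 and 1 rose on day 7. On day 5, 8 of these 10 had an unadjusted p-value under 0.05, DESeq2 called 8, and the median log2FC was -1.15. Of 5 fibroblast genes 2 fell on day 5 and 1 fell and 1 rose on day 7. For 7 alveolar type 2 markers, of which 1 rose and 2 fell on day 7, the sum was 13500 to 29600 CPM in HT7 and 17300 to 23300 CPM in NT7. The part of these shifts in the proteasome gene levels was not tested.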

How the data were processed

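Per the labels, stranded poly(A) libraries of lung RNA were sequenced as paired-end reads. The authors deposited raw counts per locus and annotated gene without normalization. The submitters' processing notes name STAR 2.7.10a, FastQC and the build OryCun2.0, and the counting program is not given in the sources used here. Of 13827 entries in 13313 loci, a locus with several genes is listed once for each with the same counts. The labels and the paper's methods name the right lung, a sentence of its results the left. No sequence tables were used.

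The filter filterByExpr of edgeR 4.0.16 (R 4.3.3) left 13142 genes for testing. After TMM scaling (factors 0.9575 to 1.0488), 1 quasi-likelihood fit took in the 17 samples with a mean for each of the 6 groups, and the 2 HT5 samples thereby share the spread of the other groups. Benjamini-Hochberg adjustment ran across the whole set of tested genes. CPM used the TMM factors, and log2FC a prior count of 0.125. DESeq2 1.42.0, the study's tool, was an alternative. Ratios were tested by exact permutation in Python 3.11.15, and figures made with matplotlib 3.10.9. The tests were checked on simulated data.

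The members and lists were chosen with earlier results of these data known. Values in every sample are given for the inducible subunits and their counterparts and for up to 3 called genes with the largest rise and fall per day, and other genes are examples chosen after their values were seen. Second entries of PSMC1, PSMC4, PSMC5 and PSME4, of lower total, were not used.

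Same-numbered samples were checked for shared deviations from the group means. The correlations were 0.17, 0.117 and 0.156 on day 3, 0.226 and 0.117 on day 5, and 0.146, 0.0847 and 0.0516 on day 7, so all pairs passed 0.1 in a day of 3 pairs only on day 3. Alternatives covered the test, normalization, count filter, prior count, thresholds, samples in the fit, 1 entry per locus, second entries, the replicate block and leaving out each sample. Leaving out genes of shared loci was added after seeing the data.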

Additional observations from a re-analysis of the deposited data

Results flagged for a closer look

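The effect of hyperoxia differed between days 7 and 3 for 10 of the 45 proteasome genes, by a test of the difference itself (edgeR's quasi-likelihood test with Benjamini-Hochberg adjustment over all genes). These are 22.2% of the 45, near the 20.5% of all genes tested. On the log2 scale, the effect of day 7 minus that of day 3 was 1.44 for PSMD14 (adjusted p = 0.00171), 0.93 for PSMD5 (adjusted p = 0.017), 0.75 for PSMA2 (adjusted p = 0.0207), 0.70 for PSMD10 (adjusted p = 0.0329) and 0.66 for PSMA1 (adjusted p = 0.0165). It was 0.57 for PSMC6 (adjusted p = 0.0266), 0.55 for PSMD8 (adjusted p = 0.0469), 0.49 for PSMB4 (adjusted p = 0.0348) and 0.46 for PSMD12 (adjusted p = 0.0477). The difference was -0.70 for PSME3 (adjusted p = 0.027), whose counts include AOC2 and AOC3. The groups hold 2 or 3 samples, too few for a test of outlying samples.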

How the results depend on the processing

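On day 5 the higher count of 14 became 8 with the samples of that day alone, 0 with the replicate block, 7 at an adjusted p under 0.01 and 0 at the study's thresholds. The lower count of 1 became 0 under each of these and without the genes of shared loci. The block fit of day 5 could call almost no gene, as 0.0158% of all genes tested rose and 0% fell in it. On day 7 the higher count became 0 at the study's thresholds, and the lower count 0 there and without the genes of shared loci. On day 3 the block gave 1 lower gene. DESeq2 called 16 higher genes on day 5, 30 on day 7 and 11 for the difference between days 7 and 3.

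Leaving out 1 sample gave 3 to 13 higher genes on day 5 (3 without HT5 replicate 2) and 25 to 32 on day 7, and 0 to 1 lower genes on day 5 (0 without either HT5 sample, NT5 replicate 2 or NT5 replicate 3). For the difference between days 7 and 3 the higher count was 4 to 20 (4 without HT3 replicate 2, HT7 replicate 1, NT3 replicate 3 or NT7 replicate 2, 5 without HT3 replicate 1 or NT3 replicate 2, 20 without HT7 replicate 2) and the lower count 0 to 1 (0 without HT3 replicate 1, HT3 replicate 2, HT7 replicate 3, NT3 replicate 2, NT3 replicate 3 or NT7 replicate 2). With 1 HT5 sample left, that sample is assumed to vary like the other groups.

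The HT minus NT difference of the log2 ratio of PSMB8 to PSMB5 was -0.68, -0.37 and -0.78 on days 3, 5 and 7 alone, and that of PSMB9 to PSMB6 -0.53, -1.27 and -1.49, where the exact permutation test cannot pass. Leaving out samples gave -0.72 to -0.45 and -1.31 to -0.88. Of the values of single genes over all alternatives, 65 lost and 8 gained the call. Another 38 values, of 23 combinations of gene and day such as PSMB8 on day 5, had the opposite sign to the reported one and passed neither there nor under the alternative, and no called value changed sign. Beyond fewer samples, the cause was not tested. PSMB11 (7 counts) and IFNG (0 to 9 counts a sample) had too few counts to be tested.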
